A study of Rattus norvegicus with 11 samples.

Results

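The genes described here encode parts of the pyruvate dehydrogenase complex and the kinases that switch it off, measured in Fischer-344 rat heart ventricle at an old and a young age. All probe sets whose platform annotation gives the single symbol Pdha1, Dlat, Pdk1, Pdk2 or Pdk4 were taken, which gave 9 of the 8799 probe sets on the array, for 5 of the 4736 genes that it reads under a single symbol. Each probe set combines several short probes for a transcript into 1 value. The series holds 11 arrays of total RNA, of which 6 are from old rats (22 months) and 5 from young rats (4 months). Fischer-344 is an inbred rat strain used in ageing research, and the labels give no treatment or genetic change in either group. Whether the replicates are different animals is not stated in the labels, so the p-values reflect the spread among these samples, part of which may be technical.

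The pyruvate dehydrogenase complex sits in the mitochondrial matrix and turns pyruvate from glucose or lactate into acetyl-CoA, which enters the citric acid cycle. Pdha1 encodes the alpha subunit of its first enzyme, E1, and Dlat the core enzyme E2, which carries lipoate and passes on the acetyl group. Pyruvate dehydrogenase kinases, encoded by Pdk1, Pdk2 and Pdk4 among others, phosphorylate the E1 alpha subunit and stop the complex, and phosphatases reverse this. Heart muscle burns mostly fatty acids, and Pdk4 is the kinase gene known for its increase in fasting and under fatty acid load, when glucose is spared.

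None of the 9 probe sets passed the test between old and young hearts. In the means, 8 were lower in old, with differences of -1.07 to -0.31 on the log2 scale, and 1, for Pdha1, was higher at 0.10. The Dlat probe set D10655_at had the smallest p: its difference was -0.77 ± 0.33 (SE), at an adjusted p of 0.581 in limma. The levels of 4 of the 9 split without overlap by the brightness of added control transcripts, as did 3.62% of all tested probe sets. These were 1 Pdha1 probe set, D00092_s_at and D10655_at of Dlat, and that of Pdk4. On them the 5 arrays with bright controls, 4 old and 1 young, read lower than the 6 with dim ones. Of these, the Pdha1 and Pdk4 probe sets passed a test between bright and dim arrays, where 1.22% of all tested did. Neither passed without young replicate 4. With that brightness in the fit as a block, the age differences of the Pdha1 and Pdk4 probe sets turned from lower to higher in old. That of D10655_at was then -0.36. The probe sets of Pdha1 differed in the sign of their age difference, but the difference between them did not pass its own test.

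In limma, 0 of the 5244 tested probe sets (0%) had an adjusted p under 0.05, and 394, or 7.51%, had an unadjusted p under 0.05. All 9 probe sets of the complex and its kinases passed the filter on low values, and none had a value at or under the floor of 47.4. Their adjusted p ran from 0.581 to 0.973. At an unadjusted p under 0.05 there was 1 of the 9, lower in old, where 4.12% of all tested probe sets were. The median difference over the 9 was -0.62, against -0.01 over all tested, and 8 of 9 had a lower mean in old, against 50.6% of all. With spike-in class blocked the median was -0.11 and 5 of 9 were lower, and with arrays centred on their medians all 9 were. The old and young arrays overlapped for all 9, while 0.973% of all tested probe sets showed no overlap. Several of the 9 read the same transcript, so they are not independent of each other. RNA came from whole ventricle, in which fewer cells of a type and less RNA per cell cannot be told apart.

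**Figure D1:**
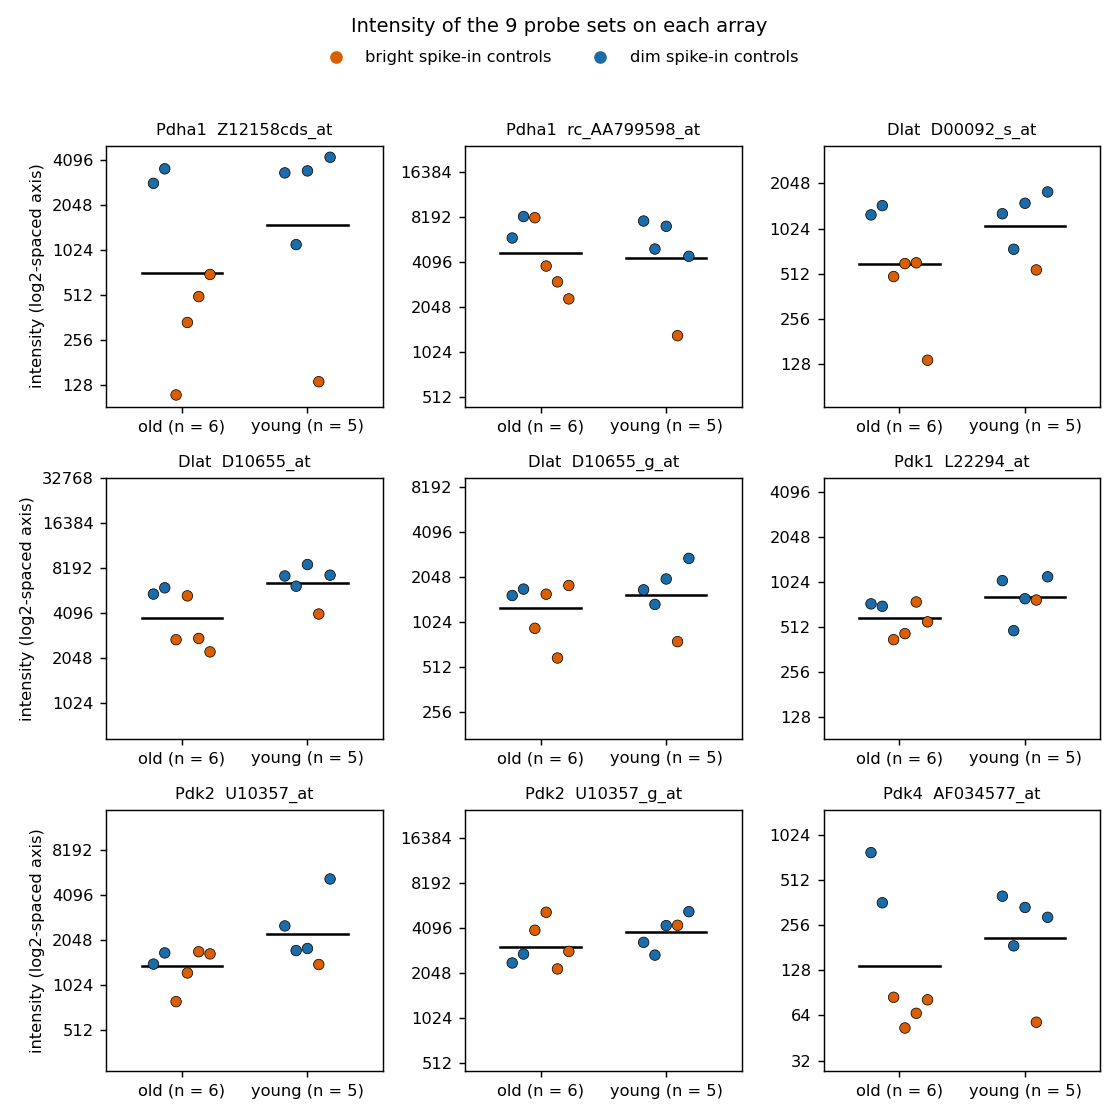
Intensity of each of the 9 probe sets on every array, on a log2-spaced axis that spans the same number of doublings in each panel. Points are arrays, coloured by spike-in class, and the line is the mean of the log2 values of the group. Old and young overlap in every panel, and the bright arrays lie below all dim ones for Z12158cds_at, D00092_s_at, D10655_at and AF034577_at.

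The arrays differed in ways that touch these values. Control transcripts are spiked into the samples as a reference. Their mean over 9 probe sets, in the deposited and already scaled values, lay between 9.55 and 15.24 on the log2 scale. Its widest gap, 1.76, separated 5 arrays with bright controls, old replicates 3 to 6 with young replicate 4, from 6 dim ones, and the next gap, 1.71, would set old replicate 6 alone. So 4 of 6 old arrays were bright and 1 of 5 young ones. The GAPDH control had a log2 ratio of its 3' over its 5' end of 3.39 and 4.09 in old replicates 3 and 4 and at most 0.77 on the other arrays. The highest correlation between any pair of arrays was 0.914, and no pair held identical values. Ventricular muscle markers, with 9 of 10 tested, averaged 14.23 to 14.71 over the old arrays and 14.47 to 14.97 over the young ones. Atrial markers (3 of 4 tested) averaged 10.61 to 13.94 in old and 9.04 to 12.69 in young, and blood markers (3 of 5 tested) 10.93 to 14.90 in old and 9.26 to 14.06 in young. For macrophages (4 of 5 tested) the range was 10.07 to 11.36 in old and 9.96 to 10.46 in young, and for fat cells (5 of 7 tested) 9.08 to 10.49 in old and 9.002 to 10.02 in young. Markers of fibroblasts (4 of 5 tested) averaged 11.20 to 12.83 in old and 11.61 to 12.78 in young, and of endothelium (2 of 5 tested) 5.90 to 8.91 in old and 6.90 to 9.25 in young. Skeletal muscle markers (3 of 7 tested) averaged 8.89 to 11.10 in old and 9.42 to 10.08 in young. Old and young overlapped for each of these lists, none of the deposited values was 0, and their part in the results was not tested.

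Pdha1 encodes the E1 alpha subunit, the target of the kinases, and was read by Z12158cds_at and rc_AA799598_at. For Z12158cds_at the intensities were 2870, 3590.8, 110.5, 337.1, 502.4 and 706.1 in old replicates 1 to 6. In young replicates 1 to 5 they were 3371.6, 1117.8, 3476.7, 135.5 and 4289.8. Old replicates 3 to 6 and young replicate 4 were low and the other 6 arrays high, so both age groups held both levels. The highest intensity was 38.8 times the lowest, and the SD over all arrays, 1.96, was at or above that of 99.5% of the tested probe sets. The mean was 9.49 ± 1.90 over the 6 old arrays and 10.55 ± 2.08 over the 5 young arrays (SD, log2 scale). The difference of -1.07 ± 0.87 (SE, 95% confidence interval -2.88 to 0.75) did not pass (limma adjusted p = 0.794). With spike-in class blocked it was 0.64 ± 0.53, and it was 0.23 among dim and 1.32 among bright arrays. Leaving out 1 array gave from -1.93 without young replicate 4 to -0.53 without old replicate 3, and without old replicates 3 and 4 it was -0.12 ± 0.85.

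The other Pdha1 probe set, rc_AA799598_at, read 5954.6, 8285.8, 8137.7, 3865.4, 3031.1 and 2331.0 in the old replicates. In the young replicates it read 7731.8, 5023.8, 7127.0, 1323.7 and 4492.0. Young replicate 4 was the lowest array here, while old replicate 3, the lowest for Z12158cds_at, was the second highest. The mean was 12.20 ± 0.76 over the 6 old arrays and 12.10 ± 1.02 over the 5 young arrays (SD), a difference of 0.10 ± 0.44 (SE, 95% confidence interval -0.82 to 1.02; limma adjusted p = 0.973). This sign rested on young replicate 4, without which the difference was -0.33 ± 0.38, and it also turned to -0.19 ± 0.53 when arrays were centred on their medians. Without old replicate 2 or 3 it was -0.06. Blocking the class gave 0.73 ± 0.39, and it was 0.24 among dim and 1.54 among bright arrays.

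Dlat encodes the E2 core, and 3 probe sets read it. The brightest, D10655_at, was at 5466.1, 6020.4, 2707.9, 5318.8, 2761.0 and 2245.3 in the old replicates. The young replicates were at 7223.5, 6168.2, 8612.1, 4022.0 and 7314.4. Each of the 6 old arrays was below the mean of the young, and young replicate 4 was the young array within the old range. On the log2 scale the mean was 11.89 ± 0.63 over the 6 old arrays and 12.66 ± 0.42 over the 5 young arrays (SD). The difference of -0.77 ± 0.33 (SE, 95% confidence interval -1.46 to -0.08) corresponds to a level 1.71-fold higher in young, with an unadjusted p of 0.030 in limma and an adjusted p of 0.581. With spike-in class blocked it was -0.36 ± 0.31, and it was -0.34 among dim arrays alone and -0.39 among bright ones.

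D10655_g_at, named for the same accession, was at 1537.7, 1697.0, 927.9, 1569.1, 587.4 and 1794.2 in old and at 1678.0, 1340.6, 1982.9, 756.2 and 2722.6 in young. The difference was -0.31 ± 0.39 (SE, limma adjusted p = 0.868), 3 of 6 old arrays were under the mean of the young, and with the class as a block it was 0.08 ± 0.39. It was -0.57 without young replicate 4 and -0.09 without old replicate 5. D00092_s_at, whose suffix marks probes that can match more than 1 transcript, was at 1263, 1456.9, 488.9, 596.8, 604.3 and 134.8 in old. In young it was at 1286.0, 743.9, 1510.8, 541.4 and 1797.8. Old replicate 6 was the lowest here, against 488.9 or more on every other array, whereas for D10655_g_at it was the highest old array. The difference of -0.85 ± 0.53 (SE, limma adjusted p = 0.720) became -0.11 ± 0.48 with the block, 0.10 among dim and -0.46 among bright arrays. Without old replicate 6 it was -0.42 ± 0.42.

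Pdk1 encodes a kinase known from the response of cells to low oxygen. Its probe set L22294_at read 732.7, 705.6, 422.4, 463.3, 754.3 and 555.5 in old and 1047.5, 484.9, 792.8, 777.2 and 1111.3 in young. Each of the 6 old arrays was below the mean of the young, and young replicate 2 was below 4 of them. The mean was 9.21 ± 0.36 over the 6 old arrays and 9.66 ± 0.47 over the 5 young arrays (SD), a difference of -0.46 ± 0.36 (SE, 95% confidence interval -1.21 to 0.30; limma adjusted p = 0.790). The SD over all arrays, 0.46, was at or above that of 8.07% of tested probe sets, so the level varied less between arrays than that of most. The direction was the same under all 24 alternatives, from -0.75 to -0.19, but those of floor, filter and variance model left the difference unchanged. It was -0.32 ± 0.40 with the class as a block, -0.19 among dim and -0.54 among bright arrays.

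Pdk2 encodes the kinase found in nearly all tissues and was read by U10357_at and U10357_g_at, named for the same accession. U10357_at was at 1417.4, 1683.8, 795.2, 1236.9, 1715.6 and 1658.8 in old and at 2551.0, 1746.0, 1802.1, 1408.6 and 5254.6 in young. Young replicate 5 stood far above the next array, and young replicate 4 lay within the old range, so that 4 young arrays were above all old ones. The difference was -0.72 ± 0.36 (SE, 95% confidence interval -1.47 to 0.03; unadjusted p = 0.058, limma adjusted p = 0.661), with 6 of 6 old arrays below the young mean. Without young replicate 5 it was -0.42 ± 0.34 (SE). U10357_g_at was at 2379.4, 2730.7, 3937.3, 5192.5, 2170.6 and 2844.1 in old and at 3267.6, 2685.6, 4230.8, 4249.3 and 5239.8 in young. Old replicate 4 was nearly as high as the highest young array, and 4 of 6 old arrays were under the young mean. The difference was -0.32 ± 0.30 (SE, 95% confidence interval -0.96 to 0.31; limma adjusted p = 0.825). With the class as a block the values were -0.50 ± 0.39 for U10357_at and -0.47 ± 0.33 for U10357_g_at, so Pdk2 kept its direction there. Among dim and bright arrays they were -0.72 and -0.12 for the first and -0.55 and -0.34 for the second. Pdk2 kept its direction under all 24 alternatives for both probe sets, but those of floor, filter and variance model left the differences unchanged.

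Pdk4, the kinase gene that PPAR and FOXO transcription factors are known to turn on, was read by 1 probe set, AF034577_at. Its intensities were 785, 363.1, 84.7, 52.8, 66.2 and 81.5 in old replicates 1 to 6. In young replicates 1 to 5 they were 401.5, 187, 337.6, 57.7 and 290.1. Old replicate 1 was the highest array of all, and the 5 bright arrays lay at 84.7 or less, near the floor of 47.4. None was at or under that floor, and the background correction behind such low values is not named. The mean was 7.11 ± 1.57 over the 6 old arrays and 7.73 ± 1.12 over the 5 young arrays (SD), a difference of -0.62 ± 0.75 (SE, 95% confidence interval -2.17 to 0.94; limma adjusted p = 0.864). Leaving out 1 array gave from -1.12 without old replicate 1 to -0.34 without old replicate 4, and without old replicates 3 and 4 it was -0.10 ± 0.79. With the class as a block the difference was 0.65 ± 0.58 (SE, 95% confidence interval -0.56 to 1.85; limma adjusted p = 0.945). It was 0.87 within the dim arrays and 0.28 within the bright ones, which hold 1 young array. The direction of the age difference of Pdk4 thus changed with the arrays and the fit used.

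**Figure D2:**
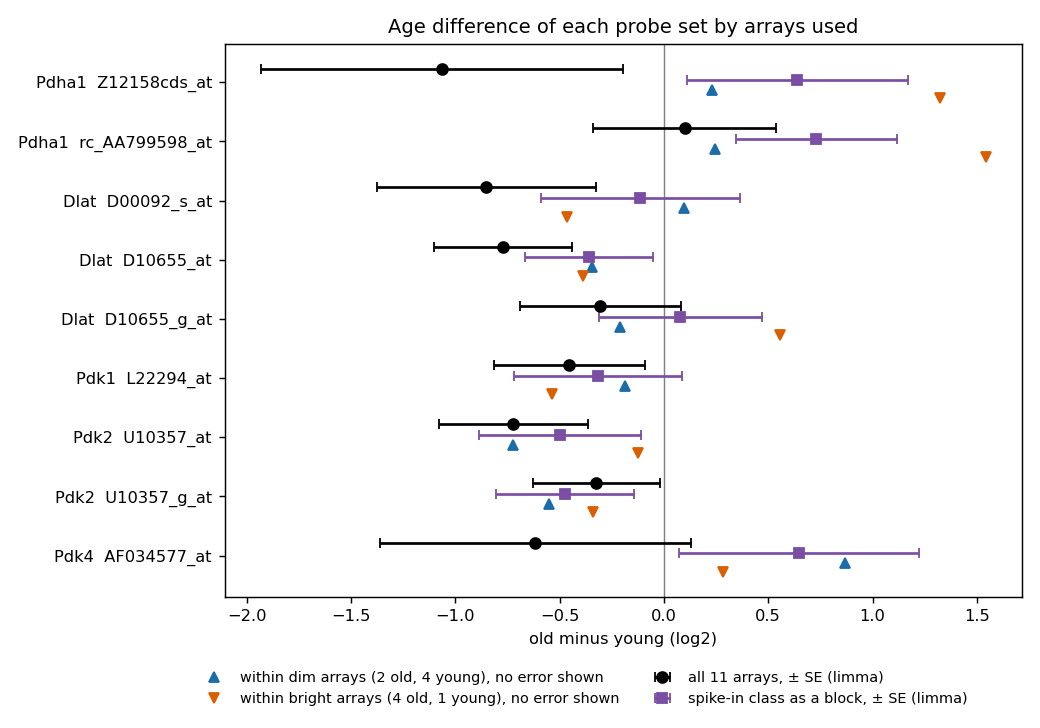
Old minus young on the log2 scale for each probe set, from all 11 arrays and with spike-in class blocked (both ± SE from limma), and as plain differences inside each class. Pdk1, both Pdk2 probe sets and D10655_at of Dlat lie below 0 in every version, whereas Z12158cds_at, D10655_g_at and Pdk4 change sign with the block.

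The bright and dim arrays were set against each other with age in the same limma fit, a comparison added after the values were seen. Z12158cds_at was lower in the bright arrays, at -3.65 ± 0.53 (SE, limma adjusted p = 0.00233), with intensities of 110.5 to 706.1 against 1117.8 to 4289.8 in the dim ones. Pdk4 was lower too, at -2.71 ± 0.58 (SE, limma adjusted p = 0.0236), with 52.8 to 84.7 in the bright and 187.0 to 785.0 in the dim arrays. These 2 of 9 passed, while 64 of 5244 tested probe sets, or 1.22%, did. Bright and dim arrays did not overlap for 4 of the 9, and for 3.62% of all tested. All 4 were lower in the bright arrays, where 2.06% of all tested were, and these were Z12158cds_at, Pdk4 and the Dlat probe sets D00092_s_at and D10655_at. The other Pdha1 probe set differed by -1.35 ± 0.39, D00092_s_at by -1.58 ± 0.48, D10655_at by -0.88 ± 0.31 and D10655_g_at by -0.82 ± 0.39, and none of these passed. Pdk1 differed by -0.29 ± 0.40, U10357_at by -0.48 ± 0.39 and U10357_g_at by 0.32 ± 0.33. Both calls were lost without young replicate 4, the only bright young array at differences of -3.24 ± 0.66 for Z12158cds_at (limma adjusted p = 0.0628) and -2.93 ± 0.73 for Pdk4 (0.133). The call of Pdk4 was also lost without old replicate 1 (limma adjusted p = 0.263), old replicate 2 (0.107) or young replicate 1 (0.0611) and without the filter (0.0614), at differences of -2.36 to -2.91. Over 18 alternatives the number of probe sets called ran from 5 to 120, the fewest without young replicate 4 and the most without old replicate 6. Of the 5 bright arrays 4 were old, so class and age overlap in part, and what the class stands for is not given in the sources used here.

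**Figure D3:**
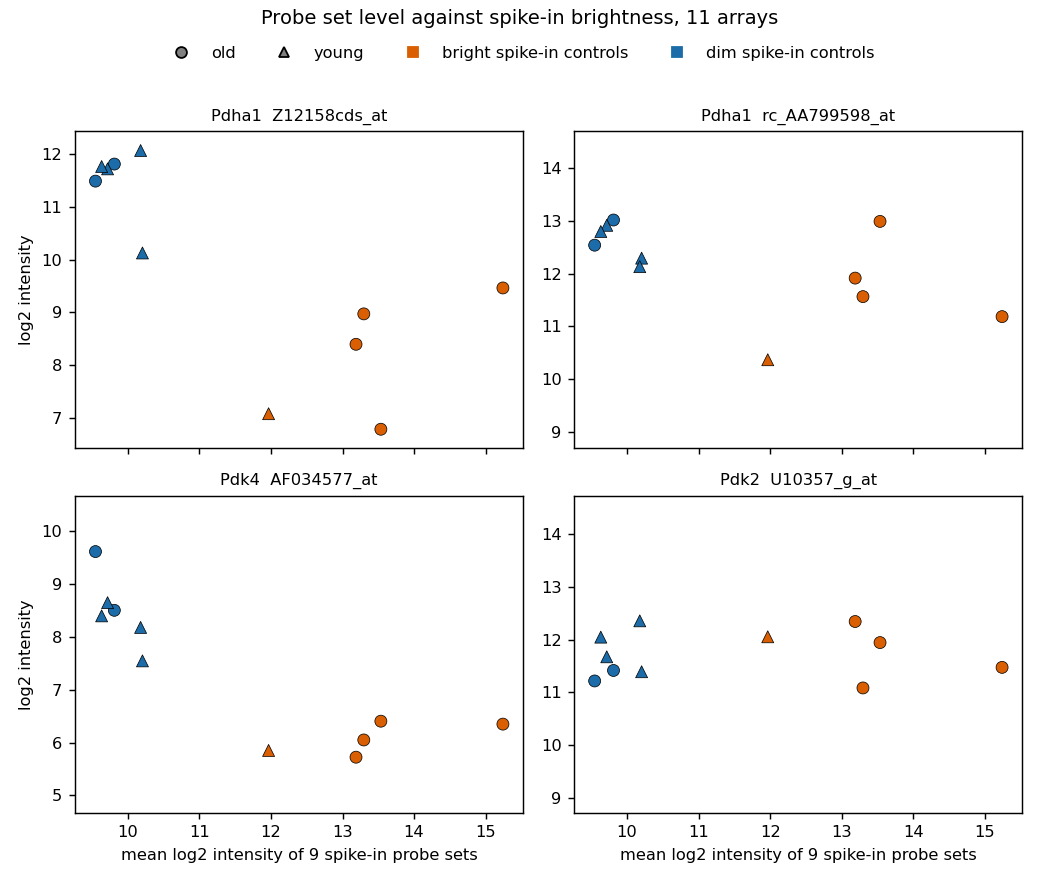
Log2 intensity of 4 probe sets against the mean log2 intensity of 9 spike-in probe sets, 1 point per array. Z12158cds_at and Pdk4 are low on all 5 bright arrays, rc_AA799598_at is spread among them, and U10357_g_at of Pdk2 overlaps between the classes.

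Pdk4 and Pdha1 are the genes with a probe set called between bright and dim arrays, so the 250 bases before the start of each, from RefSeq assembly GRCr8, are shown 5' to 3' on the strand of the gene. Capitals mark matches to the Sp1 box GGGCGG or the CCAAT box on either strand.
Pdk4, chr4:34568330-34568579 (minus strand): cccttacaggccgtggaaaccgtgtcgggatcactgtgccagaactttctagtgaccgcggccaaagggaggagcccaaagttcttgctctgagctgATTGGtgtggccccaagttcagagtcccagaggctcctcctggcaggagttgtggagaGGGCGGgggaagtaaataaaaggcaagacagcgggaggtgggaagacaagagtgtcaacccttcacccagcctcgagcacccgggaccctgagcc
Pdha1, chrX:38508908-38509157 (plus strand): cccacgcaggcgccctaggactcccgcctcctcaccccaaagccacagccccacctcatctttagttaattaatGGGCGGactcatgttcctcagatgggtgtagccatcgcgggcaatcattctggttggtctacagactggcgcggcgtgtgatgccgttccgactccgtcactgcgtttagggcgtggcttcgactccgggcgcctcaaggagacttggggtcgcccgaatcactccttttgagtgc
Both windows held 1 GGGCGG, where 30.5% of 33469 rat windows of this length held at least 1. Pdk4 held 1 CCAAT, where 34.02% of windows held at least 1. Neither held the nuclear receptor letters AGGTCA (14.1%), the longer AAGGTCA that contains them (3.99%) or the FOXO letters GTAAACA (3.21%), on either strand. These arrays measured no promoter, and a match or its lack describes the letters only.

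Whether the probe sets of a gene gave different age differences was asked from the log2 ratio between them within each array, which removes any factor common to the array. The ratio was compared between old and young by an exact two-sided permutation test over all 462 splits, of which the smallest possible p is 0.00216, with adjustment over 5 pairs. For Pdha1 the ratio of Z12158cds_at to rc_AA799598_at was -1.05, -1.21, -6.20, -3.52, -2.59 and -1.72 in old. In young it was -1.20, -2.17, -1.04, -3.29 and -0.07. Old replicates 3 and 4, the arrays with the high GAPDH ratio, were lowest, so the 2 probe sets departed most from each other there. The ratio differed by -1.17 between old and young (exact permutation p = 0.301, adjusted p = 0.664), and it was -0.01 among dim and -0.22 among bright arrays. Without old replicates 3 and 4 the difference was -0.09, and without old replicate 3 alone it was -0.47. In all, 4 of 6 old arrays were under the young mean.

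The Pdk2 pair showed its lowest ratios on the same 2 arrays. The ratio of U10357_at to U10357_g_at was -2.31 and -2.07 in old replicates 3 and 4, between -0.78 and -0.34 in the other old arrays and between -1.59 and 0.00 in the young ones. It differed by -0.40 with age (exact permutation p = 0.398, adjusted p = 0.664), and without old replicates 3 and 4 the sign turned to 0.12. For Dlat, old replicate 6 stood apart in all 3 ratios: D00092_s_at over D10655_at was -4.06, against -3.16 or more on the other arrays, and D00092_s_at over D10655_g_at was -3.73, against -1.39 or more. The ratio of D10655_at to D10655_g_at was 0.32 there and at least 1.43 elsewhere. The Dlat ratios differed with age by -0.08, -0.54 and -0.47 in that order (exact permutation p = 0.861, 0.554 and 0.188, adjusted p = 0.861, 0.693 and 0.664). Without old replicate 6 they were 0.20, -0.015 and -0.21. The probes behind each probe set were not used here, so which stretch of each transcript they read was not tested.

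**Figure D4:**
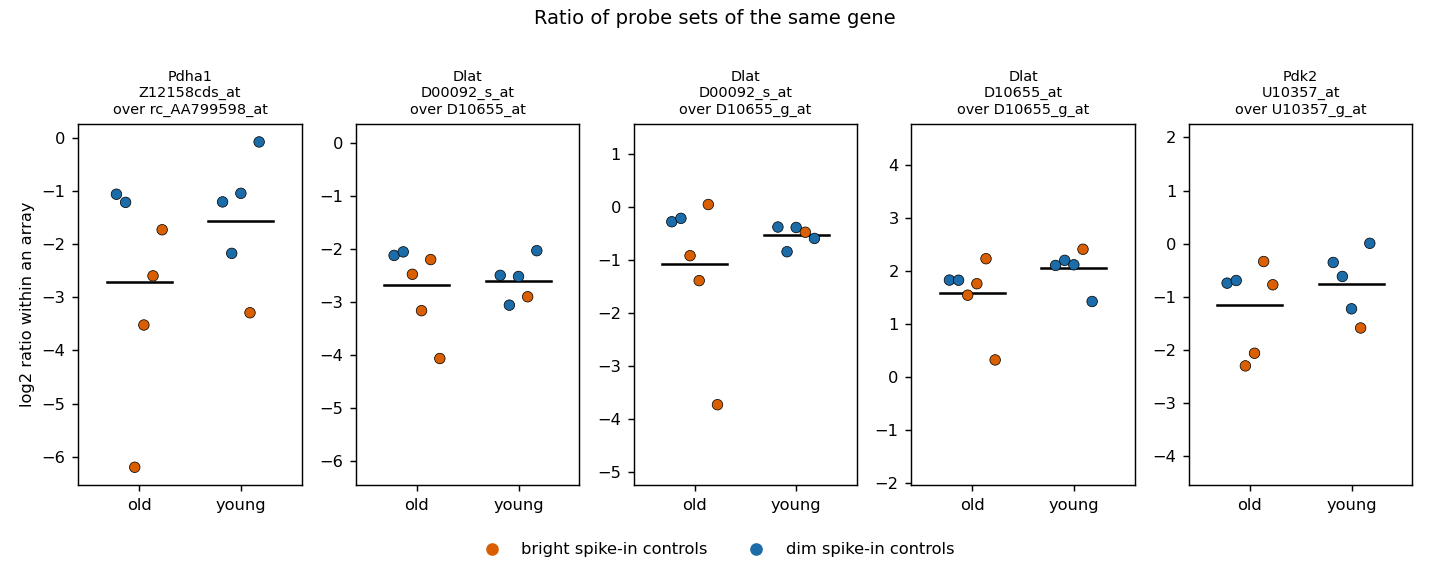
Log2 ratio between probe sets of the same gene on each array, for 5 pairs, with old and young side by side, points coloured by spike-in class and lines at the group means. Every panel spans the same log2 range, and the points departing most from the rest are old replicate 3 for Pdha1 and old replicate 6 for Dlat.

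The kinases were compared with each other in the same way, with adjustment over 3 pairs and Pdk2 read by U10357_g_at. That probe set differed with age by -0.32, the other Pdk2 probe set, U10357_at, by -0.72 and Pdk1 by -0.46. The sign for Pdk2 to Pdk1 thus depends on the probe set, and pairs with U10357_at were not tested. The ratio of Pdk4 to Pdk2 was -4.47 ± 1.85 over the 6 old arrays and -4.18 ± 1.21 over the 5 young arrays (SD), a difference of -0.29 (exact permutation p = 0.760, adjusted p = 0.827). That of Pdk4 to Pdk1 differed by -0.16 (exact permutation p = 0.827, adjusted p = 0.827), and that of Pdk2 to Pdk1 by 0.13 (exact permutation p = 0.736, adjusted p = 0.827). All 3 signs turned without old replicates 3 and 4, to 0.51, 0.15 and -0.36. Among dim arrays alone the differences were 1.42, 1.05 and -0.37 in that order, and among bright ones 0.62, 0.82 and 0.20. The bright arrays lay apart from the dim ones in both ratios with Pdk4: its ratio to Pdk2 was -6.62 to -5.04 in bright and -4.17 to -1.60 in dim arrays, and its ratio to Pdk1 was -3.75 to -2.32 in bright and -1.94 to 0.10 in dim arrays. For Pdk2 to Pdk1 the classes overlapped, with 1.52 to 3.49 in bright and 1.64 to 2.47 in dim arrays. Pdk4 by itself split the classes, at intensities of 52.8 to 84.7 against 187 to 785, and L22294_at and U10357_g_at did not. Its 2 ratios carry that split and are not a separate result, and the share over ratios of other genes was not computed.

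The other genes of the complex gave no call either, and 4 of the 8 listed were tested. Pdhb, the beta subunit of E1, differed by 0.08 ± 0.49 (SE), and Pdhx, which binds the E3 enzyme to the core, by -1.21 ± 0.69 (limma adjusted p = 0.689). Pdp1 and Pdp2 encode the phosphatases that reverse the kinases, and the difference between their probe sets was not tested. For Pdp1, AF062740_at differed by -0.26 ± 0.67 and AF062740_g_at by 1.12 ± 0.69. For Pdp2, AF062741_at differed by -0.13 ± 0.66 and AF062741_g_at by -1.48 ± 0.57 (unadjusted p = 0.017, limma adjusted p = 0.560). With the class as a block the median over the 4 genes moved from -0.20 to 0.44, with Pdp1 read by AF062740_at and Pdp2 by AF062741_at. With the block AF062740_g_at was at 1.42 and AF062741_g_at at -1.19, so this median depends on the probe sets taken. All 4 genes read lower in the bright arrays, as did 1613 of all 3206 genes tested, with Pdhb at -1.50 ± 0.44. The second probe set of Pdhb and that of Pdha2, the testis form of E1 alpha, were too dim to be tested.

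Around the complex, 0 genes of any list passed, as over all 3206 genes tested, where 220 had an unadjusted p under 0.05, or 6.86%, and the median was -0.01 with 1613 lower in old. Centring each array on its median moved the median of all genes to -0.29, with 2209 lower, and quantile normalization moved it to -0.11, with 1831 lower, so the counts of lower genes below depend on the scaling. Each gene was taken by its tested probe set of highest mean. Genes of glucose uptake and glycolysis, which supply pyruvate, were lower in 7 of 11 tested (10 under median centring), with a median of -0.38. Slc2a4, which encodes the glucose transporter that responds to insulin, differed by -0.95 ± 0.31 (SE), Aldoa, an aldolase, by -1.56 ± 0.68 and Pfkm, the muscle phosphofructokinase, by -0.62 ± 0.29. With the class as a block the median was -0.24, and these genes were at -0.84, -0.86 and -0.35. Of 7 genes that supply or use pyruvate, 4 were lower (median -0.23, turning to 0.40 with spike-in class blocked). Pc, the pyruvate carboxylase that takes pyruvate to oxaloacetate instead, was at 8.44 ± 0.80 over the 6 old arrays and 6.91 ± 1.17 over the 5 young arrays (SD), which is 1.53 ± 0.61 higher (SE, limma adjusted p = 0.560), or 0.83 ± 0.60 with the class as a block. Gpt, an alanine transaminase, differed by -0.94 ± 0.52 and Me1, the cytosolic malic enzyme, by 0.84 ± 0.50.

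Downstream, all 6 tested citric acid cycle genes had a lower mean in old (median -0.40), but 5 did under quantile normalization. Among them were Cs, the citrate synthase that takes up acetyl-CoA, at -1.12 ± 0.48, Suclg1 of succinyl-CoA ligase at -0.40 ± 0.31 and Idh3g of isocitrate dehydrogenase at -0.50 ± 0.43. With spike-in class blocked this median was -0.14, with 5 of 6 lower, and with spike-in brightness as a covariate it was -0.01, with 3 of 6 lower. In the list of lipoate and acetyl groups, Acly, Acacb, Slc25a1, Acat1 and Slc25a20 were tested, and none of its lipoate genes was. Of these 5, 1 was lower (median 0.29, 0.64 with the block, and 3 of 5 lower under median centring). Acly, the ATP citrate lyase, was at 0.57 ± 0.40, Acacb, the acetyl-CoA carboxylase of muscle, at 0.45 ± 0.56 and Slc25a1, the citrate carrier, at 0.29 ± 0.48. Of the related 2-oxoacid dehydrogenases 2 of 4 tested were lower, 1 under quantile normalization and 3 under median centring (median 0.06, turning to -0.23 under median centring and -0.22 with the block). Dlst, the E2 of the 2-oxoglutarate complex, differed by -0.46 ± 0.35. Bckdk, the kinase of the branched-chain complex, differed by 0.54 ± 0.69 and Bckdhb of that complex by 0.20 ± 0.44.

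Regulators known to act on Pdk genes were lower in 8 of 11 tested (median -0.53), and in all 11 under quantile normalization or median centring. Rxrg, a partner of PPARs, differed by -0.89 ± 0.43, Ppard by -0.87 ± 0.45 and Ppara by -1.15 ± 0.60 (SE). With the class as a block these were -0.68 ± 0.47, -0.95 ± 0.51 and -1.19 ± 0.69, and the median of the list was -0.26. Pdk4 was at -0.62 ± 0.75 without the block and at 0.65 ± 0.58 with it. A link between these regulators and Pdk4 was not tested. Fatty acid genes on which PPARs also act were lower in 13 of 14 tested (median -0.53; 12 under quantile normalization), with Acadvl, a very long chain acyl-CoA dehydrogenase, at -1.10 ± 0.46, Hadha of the trifunctional protein at -0.55 ± 0.25 and Cpt1b, the muscle carnitine transferase, at -0.57 ± 0.29. With the block 8 of 14 were lower, with a median of -0.22. The smallest limma adjusted p among these listed genes was 0.560.

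**Figure D5:**
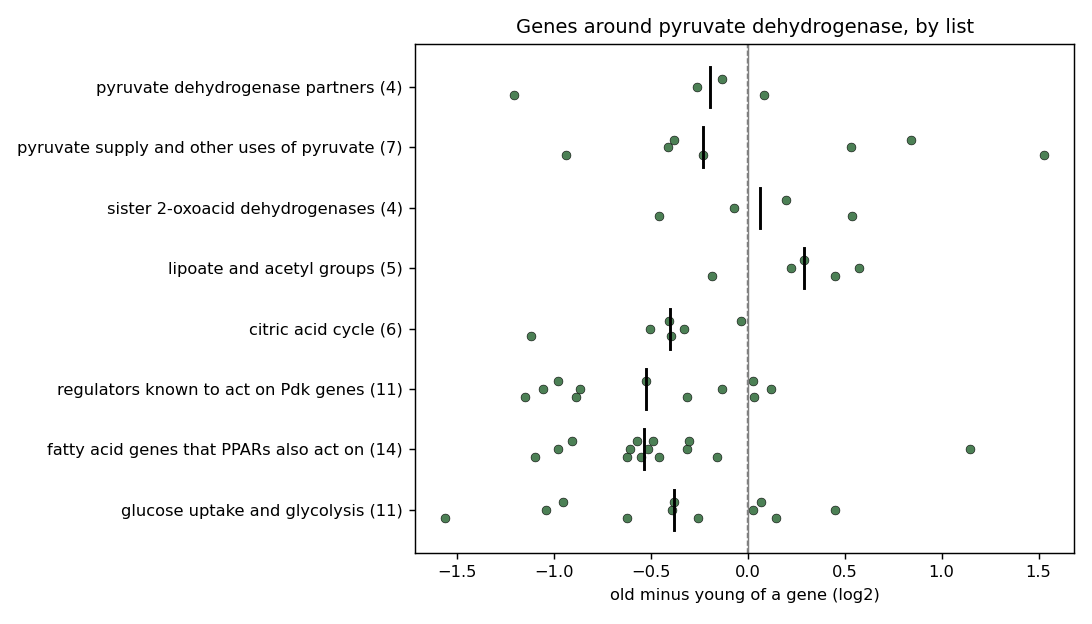
Old minus young on the log2 scale for each tested gene of 8 lists, 1 point per gene, with the number tested after the list's name, the list's median as a black bar and the median of all genes tested as a dashed line near 0. The 6 citric acid cycle genes all lie below 0, against 5 under quantile normalization and 3 with spike-in brightness as a covariate, and Pc is the rightmost gene of the pyruvate list.

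The genes nearest in pattern over the 11 arrays were found by the mean absolute difference between log2 values, each centred on its own mean. For Pdk4 these were Parp1, an enzyme of DNA repair, at 0.47 and Casq2, the cardiac calsequestrin, at 0.47, where the median over all genes was 1.32. For Pdha1, read by rc_AA799598_at, they were Lims1 at 0.27 and Psma5, a proteasome subunit, at 0.33 (median 0.91). For Dlat they were Fhl2 at 0.21 and Pkm, the muscle pyruvate kinase, at 0.25 (median 0.82). Pdk1 was nearest to Arf5 at 0.24 and to Gpx4, a glutathione peroxidase, at 0.26 (median 0.77). Pdk2 was nearest to Ldb3, a Z-disc protein, and Atp5pd, a subunit of ATP synthase, both at 0.22 (median 0.76). These are the smallest of many distances over the same 11 arrays, which share their scaling and differ in spike-in brightness, so they describe the pattern only.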

How the data were processed

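Total RNA from rat ventricle was measured on 11 arrays, 6 old and 5 young, grouped by title. The deposited table holds 1 linear intensity per probe set, from 0.2 to 307756, and the software and background correction the authors used are not named in the labels. Trimmed means of the deposited intensity (2% off each end) ran from 500.47 to 500.96 over the arrays, which shows a common scaling. Values under 47.4, the 20th percentile, were set to it before log2 was taken. The 59 control probe sets and those under the 40th percentile of mean log2 were left out, which left 5244. Age groups were compared with limma 3.58.1 in R 4.3.3 (lmFit, eBayes with a trend), using Benjamini-Hochberg adjustment over all tested at 0.05. Precision is set by the number of arrays: the median SE was 0.56.

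Gene symbols are those of the GEO platform table and can be out of date; all 5 were found in the RefSeq table of assembly GRCr8. Named were all member probe sets, the other tested genes of the complex and up to 3 genes per pathway list with the smallest p. Members, lists, tests and most alternative settings were chosen with earlier results of these data known. The spike-in class comparison, its alternatives, the spike-in covariate and the list medians under other settings were added after the values of the members were seen, as were the motif search and the probe sets drawn in figures. The spike-in means use deposited values without the floor. Scripts were tested on simulated data. The replicate numbers were not taken to pair the arrays in the main fit. Deviations of same-numbered old and young arrays correlated at -0.25 to 0.25 over 5 pairs. Arrays of different numbers were not compared in this way, so these values do not decide whether the numbers pair the arrays. Alternatives covered floor, filter, normalization, variance model, replicate block, spike-in brightness, the GAPDH ratio and leaving out each array.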

Additional observations from a re-analysis of the deposited data

How the results depend on the processing

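In limma, 0 probe sets passed in every alternative with all arrays or with arrays 3 and 4 of the old group left out, of 5244 tested, or of 8740 without the filter and 3496 at the 60th percentile filter. There were 1 within the dim arrays and 5 within the bright arrays, where 1 young array is set against 4 old ones and is assumed to vary as they do, and 0 to 2 when each array was left out, with 2 without old replicate 5. None of the 9 member probe sets passed under any alternative run. With the replicate number as a block, over replicates 1 to 5 and so without old replicate 6, 0 of 5244 passed, and the 9 members kept their direction. The direction of D10655_at, Pdk1 and both Pdk2 probe sets held under all 24 alternatives. Those of floor, filter and variance model left these differences unchanged, and the fits without 1 array share most of their arrays. With spike-in class blocked, Z12158cds_at turned to 0.64, D10655_g_at to 0.079 and Pdk4 to 0.65. With spike-in brightness as a covariate, Z12158cds_at was at 0.63, D00092_s_at at 0.23 and Pdk4 at 0.81. Within the dim arrays Z12158cds_at was at 0.23, D00092_s_at at 0.10 and Pdk4 at 0.87, and within the bright arrays Z12158cds_at was at 1.32 and D10655_g_at at 0.56. Pdk4 was too dim to be tested at the 60th percentile filter and within the bright arrays.

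The Pdha1 probe set rc_AA799598_at turned to -0.19 under median centring and -0.026 without the arrays of high GAPDH ratio, and ranged from -0.33 to 0.30 when each array was left out. Without the arrays of high GAPDH ratio, the Pdk2 pair turned to 0.12, Pdk4 over Pdk2 to 0.51, Pdk4 over Pdk1 to 0.15 and Pdk2 over Pdk1 to -0.36. Leaving out each array gave ranges of -0.20 to 0.20 for D00092_s_at over D10655_at, -0.87 to 0.14 for Pdk4 over Pdk2, -0.62 to 0.12 for Pdk4 over Pdk1 and -0.092 to 0.30 for Pdk2 over Pdk1. No pair passed under any alternative run, and the cause of these turns was not tested. The spike-in class difference of Z12158cds_at passed under 17 of 18 alternatives and that of Pdk4 under 13, and the number called over all probe sets was 22 without the filter, 108 under median centring and 36 without a trend.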
